A study of Mus musculus with 6 samples.

Results

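The genes described here encode the proteins of the cytosolic ribosome. They were chosen by symbol (Rpl or Rps followed by a number with its usual suffixes, Rplp0 to Rplp2, and Rpsa) among genes annotated as protein coding. The rule found 84 genes among the 25631 genes of the deposited table, 17773 of which are protein coding. Of these 84 genes, 46 encode core proteins of the large subunit, 30 encode core proteins of the small subunit, and 6 are paralogs of core genes (Rpl7l1, Rpl10l, Rpl22l1, Rpl36al, Rpl39l and Rps27l). The last 2, Rpl6l and Rpl32l, were in neither list. The deposited annotation placed 82 of the 84 genes in the KEGG pathway Ribosome, all but Rpl6l and Rpl7l1. The genes were spread over 19 chromosomes. The symbol rule misses genes of ribosomal proteins with other names, of which Rps3a1, Fau and Rack1 are given separately.

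RNA was sequenced from oocytes of naturally aged, 14-month-old female ICR mice, which were injected with equine chorionic gonadotropin before the oocytes were punctured from large antral follicles. Control mice drank water. Aminophylline, a theophylline derivative that inhibits phosphodiesterases nonspecifically, was given at 4.0 mM in drinking water for 1 week, and the oocytes were studied after 3 more weeks without the drug. Each group had 3 libraries, and the sources used here do not say how many oocytes or mice went into a library, so the p-values measure the spread between libraries, which may in part be technical. Both groups were aged, and no library of young mice was analysed here.

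A ribosome holds a single copy of nearly every one of these proteins, and the cell makes them in step, with the help of shared control of their mRNAs. Many of these mRNAs begin with a C and a run of pyrimidines, the 5′ terminal oligopyrimidine (TOP) motif, through which LARP1 and the mTOR pathway set their translation. A growing oocyte builds up ribosomes and mRNAs, and transcription falls silent when growth ends, so that mRNA levels in a large antral oocyte reflect both earlier synthesis and later stability.

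The start sites show what these genes share beyond their names. The RefSeq promoter table (GRCm38.p6) held 63 of the 84 genes, from 250 bases before to 50 bases after the transcription start. A start base C followed by at least 4 C or T, the strict TOP start, was found in 14 of the 63 (22.2%), compared with 3.01% of all 27025 genes in the table and 2.84% of its protein-coding genes listed in the deposited data. The next 8 windows of 30 bases, 15 before and 15 from the start base on, show 5 genes with a long pyrimidine run beside 3 without. Capitals mark a run of C followed by at least 6 C or T.
Rps27, chr3:90213634-90213663, minus strand: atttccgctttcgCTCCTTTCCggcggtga
Rplp2, chr7:141447636-141447665, plus strand: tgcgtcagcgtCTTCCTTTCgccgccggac
Rpl35, chr2:39005117-39005146, minus strand: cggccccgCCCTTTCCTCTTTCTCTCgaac
Rpl28, chr7:4792950-4792979, plus strand: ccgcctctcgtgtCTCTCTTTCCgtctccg
Rpl22l1, chr3:28805493-28805522, plus strand: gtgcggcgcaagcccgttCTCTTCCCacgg
Rpl36a, chrX:134585639-134585668, plus strand: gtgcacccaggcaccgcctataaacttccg
Rplp0, chr5:115559452-115559481, plus strand: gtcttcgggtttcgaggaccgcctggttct
Rps13, chr7:116334176-116334205, minus strand: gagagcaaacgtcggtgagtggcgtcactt
Each window covers the annotated first exon start of its gene. The run spans the start base in Rps27, Rplp2, Rpl35 and Rpl28, and begins a few bases after it in Rpl22l1. The wider feature, such a run within 30 bases of the start on either side, was found in 61.9% of the 63 genes, in 29.7% of all genes and in 30.5% of protein-coding genes. Searched on both strands of the whole promoter, CCGGAAG, the core of sites for ETS factors, was found in 39.7% of the ribosomal protein genes, in 9.93% of all genes and in 15.6% of the 14030 protein-coding genes listed in the deposited table. AAGATGGC, the core of sites for YY1, was found in 9.52, 3.19 and 4.13%. TATAAA was found in 12.7% of the ribosomal protein genes, between the 15.7% of all genes and the 11.9% of protein-coding genes. These letters were described, not tested, and all but the strict TOP start were chosen after the promoters had been seen.

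The ribosomal protein mRNAs were abundant in these oocytes. Levels are in FPKM, fragments scaled to transcript length and to library size, so they can be compared between genes. Summed over the 84 genes, they made up 2.67, 3.37 and 2.6% of all FPKM in control and 3.49, 3.61 and 3.41% after aminophylline. The mean was 2.88 ± 0.423% in control and 3.5 ± 0.1% in the aminophylline group (SD, n = 3 each). The groups did not overlap, but control 2 lay close to the aminophylline libraries and apart from controls 1 and 3. Large-subunit core genes held 1.47 to 2.03% of all FPKM across the 6 libraries and small-subunit core genes 0.997 to 1.37%, and their ratio stayed between 1.47 and 1.58 in every library.

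Although the proteins are needed in equal numbers, the levels of their mRNAs were not equal. Among the 76 core genes, the mean FPKM over the 6 libraries ran from 1.4 to 914, with a median of 144 and quartiles of 80.8 and 290. The median of all 10340 genes tested was 6.62. The 5 genes with the highest levels together held 22.2 to 24.6% of the ribosomal protein FPKM in each library. They were Rpl5, a large-subunit protein that binds 5S RNA, Rpl35 of the large subunit near the tunnel exit, and Rps29, Rps13 and Rps14 of the small subunit. Their mean levels over all 6 libraries were 914 FPKM for Rpl5, 900 FPKM for Rpl35, 840 FPKM for Rps29, 765 FPKM for Rps13 and 683 FPKM for Rps14. Rpl5 was at 841, 1024 and 760 FPKM in control and at 991, 891 and 974 FPKM after aminophylline, so the groups overlapped. Rpl35 was at 632, 1309 and 573 FPKM in control and at 1078, 1000 and 810 FPKM after aminophylline, and control 2 was the highest of all 6 libraries. These neighbours in the order of levels differed by less than their spread over libraries.

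The lowest core gene was Rpl28, which encodes a large-subunit protein. Its level was 2.22, 1.71 and 0.571 FPKM in control and 1.5, 1.3 and 1.12 FPKM after aminophylline, from 9 to 37 reads each. Rpl22, an RNA-binding protein of the large subunit, and Rpl9, also of the large subunit, followed at means of 9.9 and 12.1 FPKM over the 6 libraries. Rpl6l and Rpl7l1 each had a mean of 14.7 FPKM. Rpl32l was the only gene of the 84 below the filter for testing (at least 1 FPKM in at least 3 libraries), with 0 to 4 reads in each library. Mammalian genomes hold many processed copies of ribosomal protein genes, and how reads shared with such copies were counted is not given in the sources used here, so the level of any single gene carries that uncertainty. It applies to Rpl28 and Rpl9 and to paralogs of near-identical sequence, such as Rpl36al and Rpl36a.

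**Figure D1:**
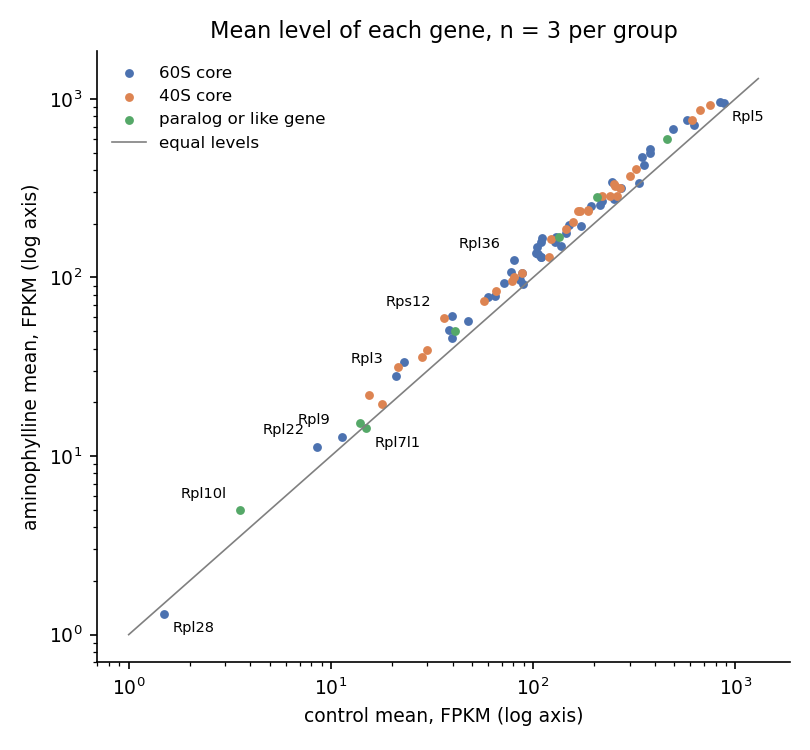
Mean level of the 83 tested genes in the control group (x axis, FPKM, log scale) against the aminophylline group (y axis, FPKM, log scale), n = 3 libraries each, with large-subunit core, small-subunit core and paralog or like genes in separate colours and a line of equal levels. Levels span from 1.4 FPKM for Rpl28 to 914 FPKM for Rpl5, and 81 of the 83 genes have a positive log2 fold change.

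Compared with control, the ribosomal protein mRNAs were mostly higher in the aminophylline libraries, by a small amount. The log2 fold change on the log2(FPKM + 1) scale was above 0 for 81 of 83 tested genes, with a median of 0.35 and quartiles of 0.26 and 0.42, beside a median of 0.10 and quartiles of -0.08 and 0.26 over all genes tested. No gene passed an adjusted p of 0.05 in limma, and the smallest adjusted p was 0.651. Over all genes the share called higher at that threshold was 0% without a replicate block, so no single ribosomal protein gene can be said to have changed after correction. At an unadjusted p under 0.05, 29 of the 83 (34.9%) were higher and 0 were lower, compared with 4.41% higher and 2.84% lower over all genes. Voom on the reads recovered from the FPKM gave 25 higher genes (30.1%, compared with 4.2% of all genes) and 0 lower genes at that threshold. It gave 0 at an adjusted p under 0.05. In 30 of the 83 (36.1%) every aminophylline library was above every control library, and in 0 was every one below, compared with 7.51 and 4.96% of all genes. Since these genes move together from library to library, these counts do not come from 83 independent measurements.

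The size of this difference depended on the libraries. The median of the ribosomal protein genes lay 0.28 and 0.35 below the 6-library mean on the log2 scale in controls 1 and 3, and 0.12 above it in control 2. In aminophylline libraries 1, 2 and 3 it was above that mean by 0.18, 0.24 and 0.11. Control 2 therefore lay with the aminophylline libraries. For 76 of 83 genes control 2 was the highest control library, for 51 it was above at least 1 aminophylline library, and for 16 it was above all 3. Control 3 was the lowest of the 6 libraries for 58 genes and control 1 for 20. In 74 genes controls 1 and 3 were both below all 3 aminophylline libraries. The median of all genes tested moved otherwise, at -0.10, -0.11 and 0.11 in controls 1, 2 and 3 and at -0.04, 0.06 and 0.08 in the aminophylline libraries.

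**Figure D2:**
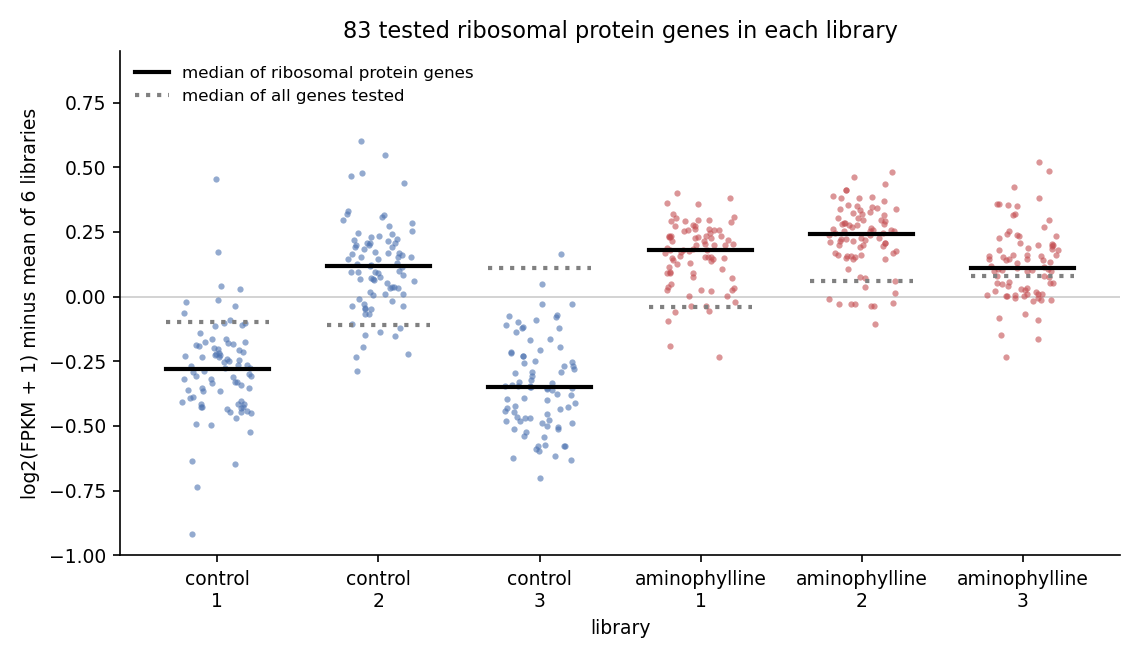
Each point is 1 of the 83 tested ribosomal protein genes in 1 of the 6 libraries, as log2(FPKM + 1) minus that gene's mean over the 6 libraries (y axis). Solid lines are medians of these genes and dotted lines medians of all genes tested, and control 2, with a median of 0.12, lies with the aminophylline libraries at 0.11 to 0.24.

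Control 2 was also the most shallow library, with 14112341 reads compared with 24773273 to 33641283 in the other 5. The reads of all libraries were also thinned to the total of control 2 on listed genes. Then 32 genes (38.6%) were higher at an unadjusted p under 0.05, compared with 4.57% of all genes. The median log2 fold change of the ribosomal protein genes was 0.35. Without control 2, 67 of the 83 genes were higher at an unadjusted p under 0.05, compared with 8.32% of all genes, and 74 did not overlap between groups, compared with 17.2%. The median log2 fold change was then 0.52. Without control 3 these counts were 10 (12%) and 31 (37.3%), compared with 11.7 and 23.3% of all genes, and the median was 0.26. The share higher at an unadjusted p under 0.05 was then near that of all genes. Without control 1 the counts were 10 and 31, compared with 2.03 and 10.7% of all genes, and the median was 0.29. Without aminophylline 1, 10 genes (12%) were higher at an unadjusted p under 0.05, compared with 5.22% of all genes. Without aminophylline 2 there were 6 (7.23%, compared with 1.91%), and without aminophylline 3 there were 18 (21.7%, compared with 2.37%). Deviations of same-numbered libraries correlated at 0.138, 0.14 and 0.552 over tested genes, but control 2 correlated more with aminophylline 1 (0.423), and no label pairs the libraries. A fit with the library number as a block gave 44 of 83 genes at an unadjusted p under 0.05, compared with 9.88% of all genes. These held all 29 of the fit without the block, and none passed an adjusted p of 0.05 (the smallest was 0.0844). Over all genes the block took 0 calls at an adjusted p under 0.05 to 35 higher (0.338%) and 12 lower (0.116%). When each library was centred on its median, which took the median fold change of all genes from 0.10 to 0.01, 4 ribosomal protein genes (4.82%) were higher at an unadjusted p under 0.05 and 6 (7.23%) did not overlap, compared with 2.72 and 4.97% of all genes, so that both shares were near those of all genes. Of the 83, 79 had a positive fold change. Over all genes that centring took the share of higher genes among those under p 0.05 from 60.8 to 35.9%, and quantile normalization took it to 39.7%.

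The spread between libraries was larger in control. The median coefficient of variation of the ribosomal protein genes was 19.9% over control libraries and 7.62% over aminophylline libraries, and 73 of the 83 varied more in control. This was so for 76.4% of all genes tested, with medians of 25.6 and 16.2%.

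The oocyte identity of the libraries was clear, and markers of other cells differed between libraries. All 13 oocyte markers were found, among them Zp3 of the zona pellucida at 3068 to 5684 FPKM, and their summed level was 26001 to 36540 FPKM in control and 28762 to 34060 FPKM after aminophylline. Of 12 markers of granulosa and cumulus cells, 4 had a mean of at least 1 FPKM. Their sum was 214 to 278 FPKM in control and 163 to 178 FPKM after aminophylline, and most of it was Serpine2, while Amh was at 0 in 5 of 6 libraries. Nr5a2 went the other way, at 6.63, 6.48 and 4.43 FPKM in control and at 7.14, 7.33 and 8.53 FPKM after aminophylline. Of the 4 tested granulosa and cumulus markers, 2 had a log2 fold change above 0 and 2 did not. Of 12 macrophage markers, 7 had a mean of at least 1 FPKM. Their sum was 257 FPKM in control 1 and 82 to 103 FPKM in the other 5 libraries, where most of it was C1qb. C1qb did not follow the others, at 72.3 FPKM in control 1 and at 79.2 to 99.8 FPKM in the other libraries. C1qa was at 1.79 FPKM in control 1 and at 0 to 0.0302 FPKM in the other libraries, and C1qc at 14.8 FPKM and at 0 FPKM. Lyz2 was at 66.4 FPKM in control 1 and at 0 to 0.573 FPKM in the other libraries, and Fcer1g at 57.6 FPKM and at 0 to 0.368 FPKM. Theca and stroma markers summed to 2.9 to 5.24 FPKM, endothelial markers to 5.63 to 8.89 FPKM and erythrocyte markers to 0.0486 to 0.585 FPKM. The part of these cells in the difference of the ribosomal protein genes was not tested. In pooled RNA of this kind, fewer cells of a type and less RNA per cell cannot be told apart, and FPKM is a share of a library and not an amount per oocyte.

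The genes with the smallest p-values came from both subunits. Rpl36, a large-subunit protein, was at 75.7, 98.3 and 66.3 FPKM in control and at 128, 121 and 127 FPKM after aminophylline. The groups did not overlap, and the log2 fold change was 0.66 (SE 0.175, limma adjusted p = 0.651). Rps12, a small-subunit protein of the head, was at 32.4, 39.3 and 37.3 FPKM in control and at 46.9, 63.8 and 66.5 FPKM after aminophylline. All 3 controls were below all 3 aminophylline libraries, and the log2 fold change was 0.68 (SE 0.185, limma adjusted p = 0.651).

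Rpl36a, a large-subunit protein near the exit site for tRNA, was at 120, 125 and 87 FPKM in control and at 156, 188 and 154 FPKM after aminophylline, a log2 fold change of 0.59 (SE 0.181). Rpl8, which reaches towards the peptidyl transferase centre, was at 30.6, 43.7 and 44.6 FPKM in control and at 53.2, 65.9 and 62.3 FPKM after aminophylline, a log2 fold change of 0.61 (SE 0.191). Rps27, a zinc-finger protein of the small subunit with the strict TOP start shown above, was at 150, 192 and 156 FPKM in control and at 231, 257 and 217 FPKM after aminophylline, a log2 fold change of 0.51 (SE 0.16). None of these 3 overlapped between groups, and their adjusted p-values in limma were 0.661 and 0.662. In these 5 genes control 2 lay below all 3 aminophylline libraries, but they were chosen by smallest p, which favours such a separation.

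Only 2 of the 83 genes had a negative fold change, and neither passed an unadjusted p of 0.05. Rpl7l1, a paralog of Rpl7 known for a role in early ribosome assembly, was at 16.6, 13.9 and 14.3 FPKM in control and at 14.9, 13.5 and 14.7 FPKM after aminophylline, a log2 fold change of -0.05 with a 95% interval from -0.45 to 0.35. Without control 1 it was 0.02. Rpl28 had a log2 fold change of -0.06 with an interval from -0.63 to 0.52, and its sign turned in 5 of the alternatives. Its 9 reads in control 3 leave little to compare.

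**Figure D3:**
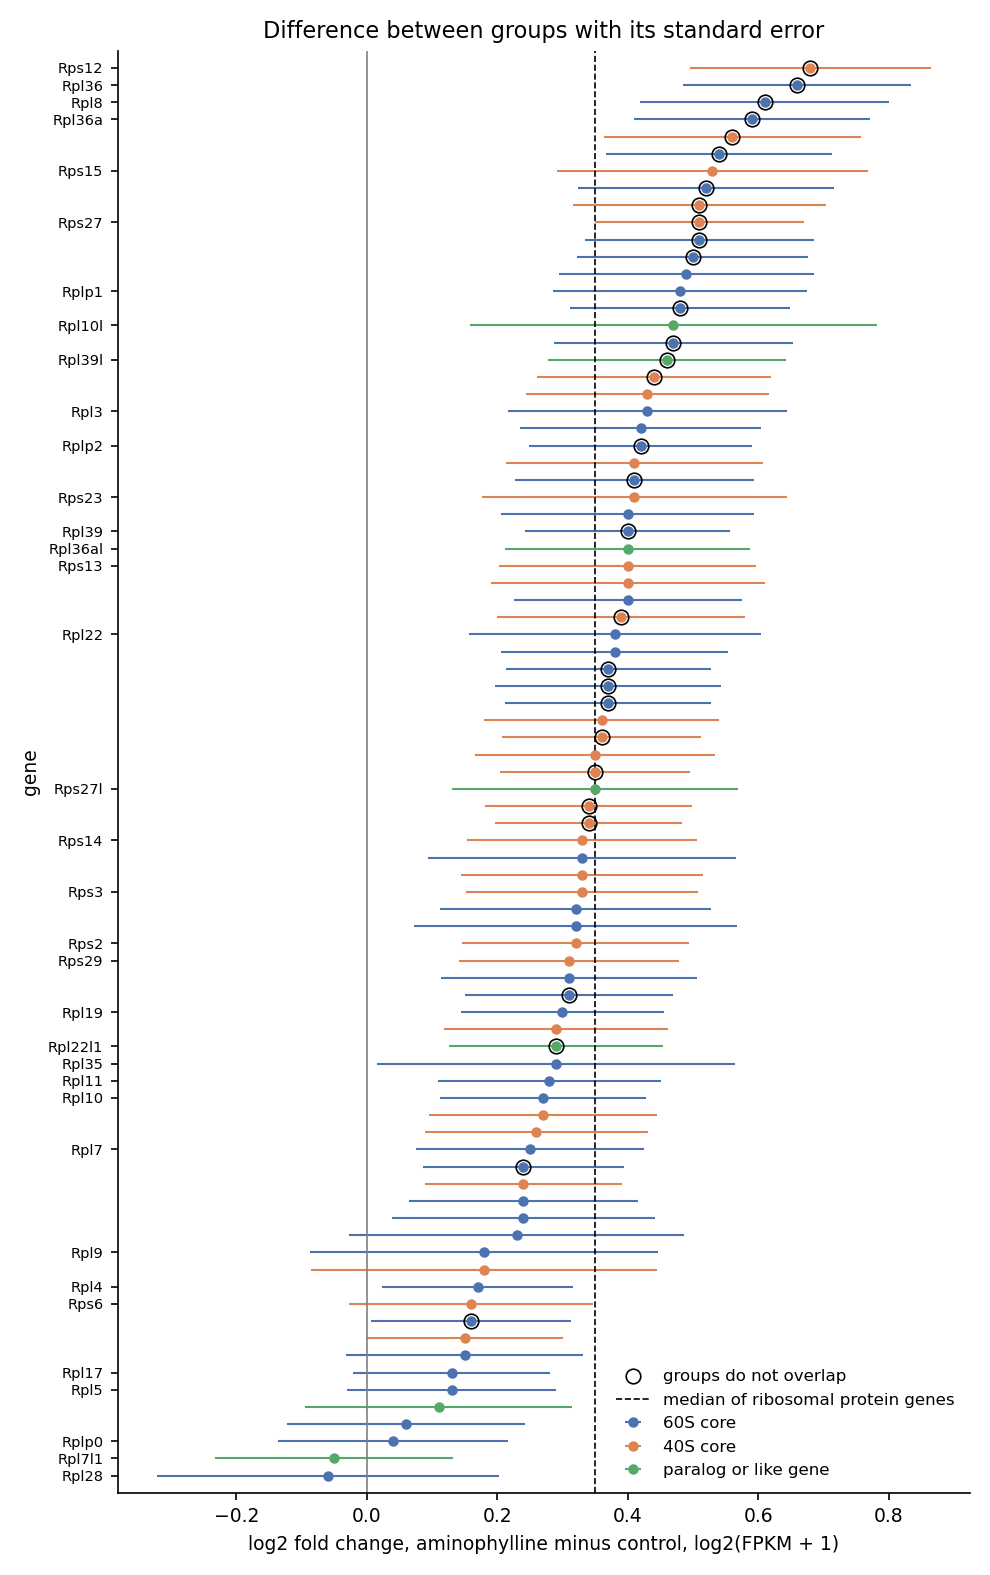
Log2 fold change (x axis, aminophylline minus control on log2(FPKM + 1), points) with its standard error (lines) for each of the 83 tested genes (y axis, with the names of genes described in the text), coloured by subunit or paralog, with open rings where the groups do not overlap and a dashed line at the median. All but Rpl7l1 and Rpl28 are above 0, the median is 0.35, and 30 genes carry a ring.

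The subunits had the same median fold change. Of 46 large-subunit core genes, 18 (39.1%) were higher at an unadjusted p under 0.05, and the median log2 fold change was 0.35. Of 30 small-subunit core genes 10 (33.3%) were, with the same median of 0.35. Of 7 tested paralogs and like genes, 1 (14.3%) was (Rpl39l), with a median of 0.35. Over all genes the share was 4.41%. With the replicate block these counts were 22, 18 and 4, and the share over all genes rose to 9.88%.

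Among the stalk proteins, which recruit translation factors to the large subunit, Rplp1 and Rplp2 had larger fold changes than Rplp0. Rplp1 was at 321, 487 and 324 FPKM in control and at 577, 544 and 441 FPKM after aminophylline, a log2 fold change of 0.48 (SE 0.195, limma adjusted p = 0.682), and the groups overlapped through control 2. Rplp2 was at 359, 462 and 312 FPKM in control and at 529, 488 and 483 FPKM after aminophylline, a log2 fold change of 0.42 (SE 0.171, limma adjusted p = 0.682), and the groups did not overlap. Rplp0, which anchors the other two to the ribosome, was at 340, 397 and 260 FPKM in control and at 355, 327 and 333 FPKM after aminophylline. Its log2 fold change was 0.04 with an interval from -0.34 to 0.43, and it turned negative under median centring (-0.04) and quantile normalization (-0.02). The difference between these fold changes was not tested.

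Rpl5 and Rpl11, which enter the large subunit together with 5S RNA and bind MDM2 outside the ribosome, had log2 fold changes of 0.13 and 0.28. Rpl11 was at 77.5, 107 and 78.7 FPKM in control and at 110, 106 and 101 FPKM after aminophylline, with control 2 among the aminophylline libraries, and neither gene had an unadjusted p under 0.05.

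Of the 6 genes of the peptidyl transferase centre and the exit tunnel, Rpl8 and Rpl39 (33.3%) had an unadjusted p under 0.05. The share higher was 34.9% over the 83 ribosomal protein genes and 4.41% over all genes. Rpl39, a short protein that lines the tunnel, was at 566, 662 and 499 FPKM in control and at 773, 791 and 709 FPKM after aminophylline, a log2 fold change of 0.40 (SE 0.157, limma adjusted p = 0.682), with no overlap. Rpl3, next to the peptidyl transferase centre, was at 16.4, 19.5 and 27 FPKM in control and at 24, 30.3 and 30.2 FPKM after aminophylline, so that control 3 lay within the aminophylline range. The log2 fold changes of Rpl10, Rpl4 and Rpl17 were 0.27, 0.17 and 0.13, and their groups overlapped.

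Of the 5 genes of the decoding site and the mRNA channel, Rps15 had an unadjusted p under 0.05, and with the replicate block 2 did. The block took the share higher over all genes from 4.41 to 9.88%. Rps15, near the decoding centre, was at 145, 246 and 120 FPKM in control and at 242, 256 and 210 FPKM after aminophylline, a log2 fold change of 0.53 (SE 0.238, limma adjusted p = 0.684), and control 2 lay within the aminophylline range. Rps23, Rps3 and Rps2, which line the decoding centre or the mRNA entry, had log2 fold changes of 0.41, 0.33 and 0.32. Rps6, the target of S6 kinase, was at 93.3, 151 and 114 FPKM in control and at 127, 129 and 137 FPKM after aminophylline. Control 2 was the highest of the 6 libraries for Rps6, and its log2 fold change of 0.16 had an interval from -0.25 to 0.57.

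Rpl19, a large-subunit protein, served the study as the reference gene for qRT-PCR, which the paper describes for neonatal ovaries and their cells. In the aged oocytes studied here, Rpl19 was at 142, 161 and 133 FPKM in control and at 187, 188 and 160 FPKM after aminophylline. Control 2 was just above aminophylline 3, and the log2 fold change was 0.30, with a 95% interval from -0.04 to 0.64 (limma adjusted p = 0.696).

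Paralogs can replace their core partner in the ribosome, and some were expressed at higher levels than the core gene in these oocytes. Rpl22l1, the paralog of Rpl22, was at 39.3, 45.8 and 37.9 FPKM in control and at 50.3, 46.5 and 53.7 FPKM after aminophylline. Rpl22 itself was at 7.29, 11 and 7.23 FPKM in control and at 9.87, 11.2 and 12.7 FPKM after aminophylline, and the ratio of Rpl22l1 to Rpl22 was 4.93 ± 0.677 in control and 4.49 ± 0.533 after aminophylline (SD, n = 3 each). The paralog was above its partner in all 6 libraries. Rpl36al was likewise above Rpl36a in all 6, at 370 to 597 FPKM in control and 557 to 618 FPKM after aminophylline, with a ratio of 4.15 ± 0.679 and 3.6 ± 0.321 (SD, n = 3 each).

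Rpl39l, a paralog of Rpl39 best known from male germ cells, was at 221, 241 and 160 FPKM in control and at 312, 265 and 267 FPKM after aminophylline. These groups did not overlap, and its log2 fold change was 0.46 (SE 0.182, limma adjusted p = 0.682). Its ratio to Rpl39 was 0.358 ± 0.0359 in control and 0.372 ± 0.0339 after aminophylline (SD, n = 3 each), and it stayed between 0.32 and 0.403 in the 6 libraries. Rps27l was at 94.7 to 170 FPKM in control and 139 to 187 FPKM after aminophylline, with a ratio to Rps27 of 0.804 ± 0.171 and 0.714 ± 0.0658. Rpl7l1 had a ratio to Rpl7 of 0.141 ± 0.0427 and 0.111 ± 0.0108. Rpl10l, an intronless paralog of the X-linked Rpl10 that is known from spermatogenesis, was low, at 1.66 to 5.26 FPKM in control and 3.7 to 5.68 FPKM after aminophylline, from 57 to 173 reads, with a ratio to Rpl10 of 0.0162 ± 0.00703 and 0.0195 ± 0.0046.

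None of the 6 ratios was shown to differ between groups. The exact two-sided permutation p-values on the mean log2 ratio were 0.3 for Rpl7l1, Rpl22l1 and Rpl36al, 0.5 for Rpl10l and 0.6 for Rpl39l and Rps27l, and all were 0.6 after adjustment over the 6 pairs. With 3 libraries against 3 the smallest p this test allows is 0.1. The differences in log2 ratio were -0.31 for Rpl7l1, 0.35 for Rpl10l, -0.13 for Rpl22l1, -0.19 for Rpl36al, 0.05 for Rpl39l and -0.15 for Rps27l. Rpl3l and Rps4l were not analysed here.

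**Figure D4:**
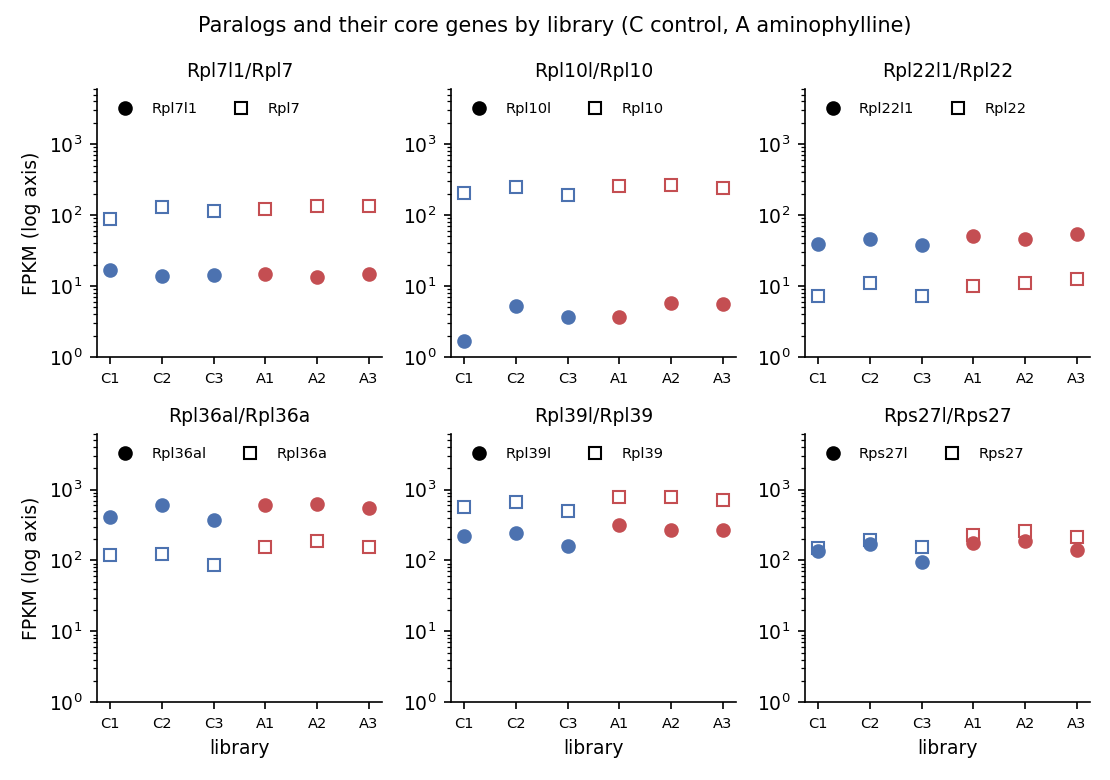
FPKM (y axis, log scale) of 6 paralogs (filled circles) and their core genes (open squares) in each of the 6 libraries (x axis, control in blue, aminophylline in red). Rpl22l1 and Rpl36al lie above their core genes in all 6 libraries, Rpl7l1, Rpl10l, Rpl39l and Rps27l lie below theirs, and none of the 6 ratios was shown to differ between the groups.

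The ribosomal protein genes were short, and among other genes too those under 1000 bases had the higher median fold changes. The transcript length behind their FPKM ran from 346 to 5136 bases with a median of 808, compared with a median of 2771 over all genes tested. Of 13 ribosomal protein genes under 500 bases the median log2 fold change was 0.40, compared with 0.17 for 353 other genes of that length. From 500 to 1000 bases it was 0.36 for 39 ribosomal protein genes and 0.16 for 1045 other genes, and from 1000 to 2000 bases 0.31 for 24 and 0.08 for 2210. From 2000 to 4000 bases it was 0.33 for 6 and 0.06 for 3296. From 4000 bases on it was 0.10 for 3353 other genes and 0.56 for the 1 ribosomal protein gene, so the medians did not fall steadily with length. Across the 83 genes, the Spearman correlation of fold change and length was -0.25, a description over genes that share their libraries. After a loess correction for length the median of the ribosomal protein genes was 0.29, and 20 of them were higher at an unadjusted p under 0.05, compared with 3.77% of all genes. After a correction for GC content and length together the median was 0.25 beside 0.07 for all genes, and 18 were higher at an unadjusted p under 0.05, compared with 3.38% of all genes. The part of length in the difference was otherwise not tested.

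**Figure D5:**
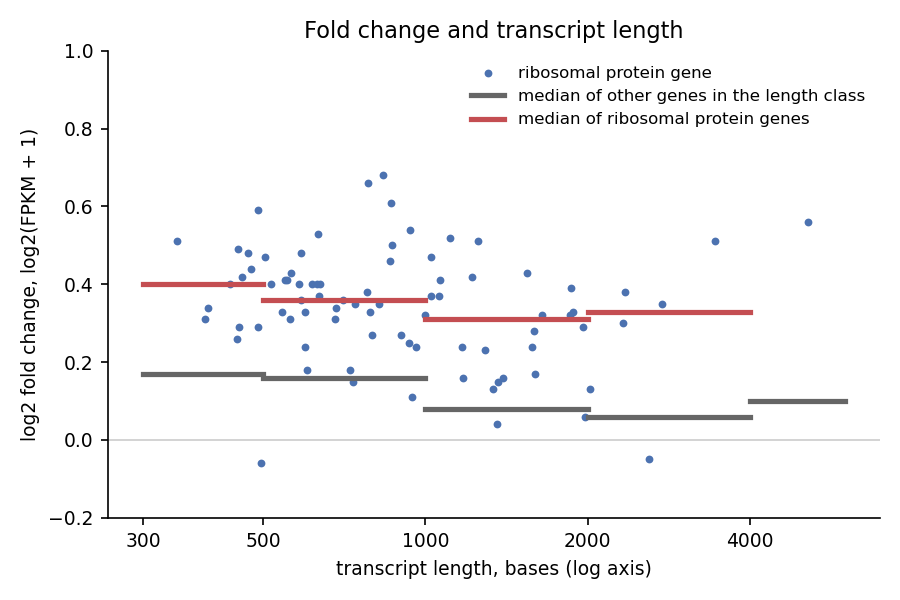
Log2 fold change (y axis, log2(FPKM + 1), aminophylline minus control) against transcript length in bases (x axis, log scale) for the 83 tested ribosomal protein genes, with medians of these genes in red and of all other genes in grey for each length class. The median of the ribosomal protein genes is 0.31 to 0.40 and that of the other genes 0.06 to 0.17 in the classes below 4000 bases.

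Genes with and without the start-site features had like fold changes. The median log2 fold change was 0.36 for the 38 tested genes with a long pyrimidine run within 30 bases of the start and 0.38 for the 24 without. It was 0.37 for 13 tested genes with the strict TOP start and 0.35 for 49 without, and 0.36 for genes with and for genes without CCGGAAG. Rps27 and Rpl28, which both have the strict TOP start, stood at 0.51 and -0.06.

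Among ribosomal protein genes with other names, Rps3a1 was at 71.3, 71.3 and 68.5 FPKM in control and at 79.4, 84.2 and 107 FPKM after aminophylline, a log2 fold change of 0.34 (SE 0.166, limma adjusted p = 0.688). Rack1, a scaffold on the small subunit, was at 98.2 to 118 FPKM in control and 123 to 132 FPKM after aminophylline, and these groups did not overlap. Fau, which encodes a ribosomal protein fused to a ubiquitin-like protein, had a log2 fold change of 0.33 with overlapping groups.

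The lists of genes around the ribosome each had at most 5 genes higher and 2 lower at an unadjusted p under 0.05. Over all genes the shares were 4.41% higher and 2.84% lower. Mitochondrial ribosomal proteins, which build a separate ribosome, had 77 genes tested. Of these, 5 (6.49%) were higher and 0 lower at that threshold, with a median log2 fold change of 0.17. It was above 0 for 67 of the 77, compared with 6702 of the 10340 genes tested. In 15 (19.5%) every aminophylline library was above every control library and in 1 (1.3%) below, compared with 7.51 and 4.96% of all genes. Of 13 tested genes with TOP mRNAs outside the ribosome, 1 was higher and 1 lower at that threshold (2 and 1 with the replicate block), with a median of 0.19. The groups did not overlap in 4 (30.8%) on the higher side and 1 (7.69%) on the lower side. Eef1g, a subunit of the elongation factor that reloads eEF1A, was at 9.21 to 11.4 FPKM in control and 12.2 to 18.1 FPKM after aminophylline, and Eif3e, a subunit of initiation factor eIF3, was at 176, 105 and 133 FPKM in control and at 91.7, 90.5 and 93.9 FPKM after aminophylline. Their log2 fold changes were 0.52 and -0.55, and neither overlapped between groups.

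Of 8 tested genes that control TOP mRNAs and S6 (the mTOR complex and its targets), 0 were higher and 1 (12.5%) was lower at an unadjusted p under 0.05. Over all genes the shares were 4.41% higher and 2.84% lower. The median log2 fold change of the 8 genes was -0.06. The lower gene was Eif4e, the cap-binding protein, at 101, 64.6 and 76.4 FPKM in control and 53.1, 55.6 and 51.4 FPKM after aminophylline, a log2 fold change of -0.56 (SE 0.186, limma adjusted p = 0.664). The next by p, Akt1s1, a subunit of the mTOR complex, was at 0.57 to 1.63 FPKM in control and 1.18 to 1.67 FPKM after aminophylline.

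Of 33 tested ribosome assembly genes, 4 (12.1%) were higher and 2 (6.06%) lower at an unadjusted p under 0.05, compared with 4.41 and 2.84% of all genes. Their median log2 fold change was 0.10, equal to that of all genes. The groups did not overlap in 5 (15.2%) on the higher side and 2 (6.06%) on the lower side, compared with 7.51 and 4.96% of all genes. Fbl, the methyltransferase of ribosomal RNA, was at 1.14, 1.04 and 1.8 FPKM in control and at 2.68, 3.08 and 3.34 FPKM after aminophylline, with a log2 fold change of 0.80 (SE 0.211, limma adjusted p = 0.651). Eif6, which keeps the new large subunit from joining too early, was at 145, 187 and 179 FPKM in control and at 233, 224 and 250 FPKM after aminophylline, with a log2 fold change of 0.47 (SE 0.157, limma adjusted p = 0.664). Neither overlapped between groups. Of 8 tested genes of RNA polymerase I and its factors, which transcribe ribosomal RNA, 0 were higher and 1 was lower at an unadjusted p under 0.05. That gene was Taf1b, with a log2 fold change of -0.52, and the next by p, Taf1a, had -0.34. The groups did not overlap in 2 of the 8 (25%) on the higher side and 2 (25%) on the lower side, compared with 7.51 and 4.96% of all genes.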

How the data were processed

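Oocyte RNA of 3 control and 3 aminophylline libraries was sequenced after TRIzol extraction and preparation with a VAHTS Universal V6 kit. The authors deposited FPKM values per gene (build GRCm38, mm10 in the submitters' processing notes). The aligner, counter and annotation are not given in the sources used here. Whole reads could be recovered from the steps of the values for 100% of 22583 genes (those not at 0 in more than 4 libraries, relative tolerance 1e-07), with 14112341 to 33641283 reads per library. Groups came from the labels' treatment. The ages, dose and weeks came from the study's methods.

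From the deposited FPKM, log2(FPKM + 1) was tested with limma 3.58.1 (R 4.3.3, two-sided, variance moderated with a trend) over 10340 genes with at least 1 FPKM in at least 3 libraries, with Benjamini-Hochberg adjustment. The fold changes understate changes of low genes. Ratios were tested by exact permutation (scipy 1.17.1). The fit was tested on simulated data. GC content was known for 90.2% of tested genes.

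The ribosomal protein genes and the gene lists were chosen with earlier results of these data known. Genes named are the 5 higher and 5 lower (only 2 were lower) by smallest p, the 5 highest and 5 lowest by level, paralogs with their partners, 4 role lists, Rpl19, genes the symbol rule misses and 2 per pathway list by p. Some genes are not reported here. The mitochondrial list, Rpl6l and Rpl32l were added after their values were seen.

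Deviations from the group mean of same-numbered libraries correlated at 0.138, 0.14 and 0.552 over tested genes, each over 0.1. A fit with the library number as a block was therefore run as an alternative, while the main fit used the group only. Neither the labels nor these correlations settle whether the numbers pair the libraries. Control 2 correlated more with aminophylline 1 (0.423). Protein sequences were not used here.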

Additional observations from a re-analysis of the deposited data

How the results depend on the processing

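The results were recomputed under 21 alternatives and left-out libraries. In all of them 0 ribosomal protein genes passed an adjusted p of 0.05 (the lowest was 0.0844), 0 were lower at an unadjusted p under 0.05, and the median log2 fold change stayed between 0.25 and 0.52. The count higher at an unadjusted p under 0.05 was 29, beside 4.41% of all genes. It became 44 with the replicate block (9.88% of all genes), 59 with library weights (13.5%), 18 after loess correction for GC content and length (3.38%, added after the data were seen) and 4 with median centring (2.72%). With a library left out it ran from 6 without aminophylline 2 (1.91% of all genes) to 67 without control 2 (8.32%). Without control 3 it was 10 (12%), near the 11.7% of all genes. The count of genes not overlapping was 30, beside 7.51% of all genes. It became 6 with median centring (4.97%). With a library left out it ran from 31, without control 1 (10.7% of all genes) or control 3 (23.3%), to 74 without control 2 (17.2%). On the lower side it was 0 to 1. The median, 0.35, ran from 0.26 to 0.52 with a library left out. With the replicate block no named gene passed an adjusted p of 0.05. Among the lists, the block took genes higher at an unadjusted p under 0.05 from 5 to 7 for mitochondrial ribosomal proteins. It took them from 4 to 6 for assembly and from 2 to 3 for the peptidyl transferase centre and tunnel. With the GC and length correction without the block these 3 counts were 3, 4 and 0. That correction also took the stalk from 2 to 0 and the decoding site and mRNA channel from 1 to 0. The cause of these moves was not tested.

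Of 962 values of 46 named genes, 946 kept their direction and side of the threshold and 16 changed sign. Rpl28 became 0.06 with thinned reads and 0.03 with voom, and ran from -0.36 to 0.16 with a library left out. Rplp0 became -0.00033 with library weights, -0.02 with the GC and length correction with or without the block, -0.04 with median centring and -0.02 with quantile normalization, and ran from -0.12 to 0.18 with a library left out. Rps6 became -0.02 with the GC and length correction with or without the block and ran from -0.01 to 0.34. Rpl7l1 ran from -0.10 to 0.02 and Rpl9 from -0.09 to 0.38, and the log2 ratio difference from -0.08 to 0.60 for Rpl10l to Rpl10 and from -0.03 to 0.13 for Rpl39l to Rpl39. Reads limit Rpl28 and Rpl10l most.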
